A study of Mus musculus with 20 samples.

Results

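The synaptic vesicle and release machinery was followed here as a list of 50 genes, chosen by name around the loading, docking, priming and fusing of synaptic vesicles. Some of them encode proteins of endosomes, dense-core vesicles or endocytosis, as named below. All 50 stood among the 22556 genes of the stage matrix, and 44 reached 1 FPKM (fragments mapped per kilobase of a transcript, adjusted for depth) in at least 3 of 9 wild-type libraries and could be tested among 11741 genes. By role they comprised 10 SNARE proteins, 6 SNARE regulators, 10 calcium sensors and their relatives (8 tested), 10 vesicle proteins (9 tested), 13 active zone and priming proteins (10 tested) and 1 endocytic adaptor. Some of those relatives do not bind calcium.

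The study sorted serotonin (5-HT) neurons of C57BL/6 mice by the fluorescent protein EYFP and sequenced their RNA, and it mapped the chromatin sites of a Myc-tagged form of Pet-1, the ETS-family transcription factor of these neurons encoded by Fev. Wild-type neurons were taken at E11.5 and E15.5 (E for embryonic day) and at postnatal days 1 to 3 (PN), with 3 libraries each made with the Clontech kit. At E15.5, neurons of Pet-1-/- animals were compared with wild type in 3 libraries a group with the Clontech kit and again in 3 a group with the NuGEN kit. The chromatin sample was 1 precipitation with 1 input from hindbrain of E12.5 and older embryos that the protocol describes as Pet-1-/- with the transgenes ePet-mycPet-1 and ePet-EYFP, although another label calls the sample wild type. The last embryonic age is given as E14.5 in one label and E15.5 in another. Both transgenes carry the name of the ePet enhancer, which drives expression in 5-HT neurons. For the sorted neurons the labels name EYFP but no driver, and they do not say whether animals were pooled or whether the libraries came from separate animals, so the spread between libraries may be technical. The stage columns carry no replicate number, so their libraries are called a, b and c in column order.

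A synaptic vesicle fuses when the vesicle SNARE synaptobrevin (Vamp2) zips together with syntaxin 1 and SNAP-25 of the plasma membrane. Munc13 and RIM proteins prepare vesicles for fusion at the active zone, complexins hold the assembled complex ready, synaptotagmins sense calcium, and NSF with its SNAP adaptors takes the spent complex apart. Serotonin neurons release from axon terminals and also from their cell bodies and dendrites, and much of their output acts at a distance from the release site.

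Between E11.5 and PN, the whole span of the series, 31 of the 44 tested genes rose and 0 fell. A gene was called by limma's moderated test when its change on log2(FPKM + 1), the scale of every log2 value given for the stages, was 1.5-fold or more with an adjusted p under 0.05 (Benjamini-Hochberg over all 11741 genes). In this comparison 27.4% of all genes were called, 17.4% higher, and 1177 genes were lower. The median log2 change of the 44 genes was 1.48, beside 0.08 for all genes. From E11.5 to E15.5, 14 rose and 2 fell, with a median of 0.65 beside 0.11 for all genes. Over all genes 28.9% were called in that interval, 17.4% higher, and 1348 genes were lower. In the later interval, from E15.5 to PN, 13 rose and 0 fell, with a median of 0.69 beside 0.01. There 20.2% of all genes were called, 10.6% higher, and 1121 genes were lower. By limma, synaptogyrin 1 (Syngr1) was the 1 gene called higher in both intervals. Of the others, 13 rose in the earlier interval without a call in the later, 10 rose in the later without a call in the earlier, 7 were called over the whole span alone, and Rims2 and Unc13a fell and then rose. The remaining 11 were called in none of the 3 comparisons. Without E15.5 library b, 10 genes in place of 16 were called in the earlier interval, and without PN library a or b, 8 in place of 13 in the later. The q-values of the authors' deposited stage table call 24 in the later interval, 22 higher and 2 lower. They call Cplx1, Syt5, Syt7, Syt13, Syngr3, Pclo and Vamp1 higher in both intervals. Syngr1 is not called by them in the earlier interval (q = 0.101), so the split of genes between the intervals depends on the test used. The later and whole-span counts hold Vamp1 and Syt12, which reached 1 FPKM at PN alone and so passed the filter only through the stage where they were high. The list was proposed with results of these data known, so its counts describe it and do not test it.

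The change after E15.5 was also set against the change before it, as a contrast of the same limma fit at an adjusted p under 0.05. The difference passed the threshold for 12 of the 44 genes, in a table where 22.6% of all genes passed, 9.62% with a larger later change and 13.0% with a smaller one. Cplx2, Syt12, Syn1, Syp, Rims2 and Unc13a changed more upward in the later interval. Snap25, Stx12, Nsf, Syt4, Synpr and Syngr3 changed more upward in the earlier one. Without E15.5 library b, 7 differences passed in place of 12. The 2 intervals share the E15.5 libraries, so an E15.5 value that is off moves both changes in opposite directions.

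**Figure D1:**
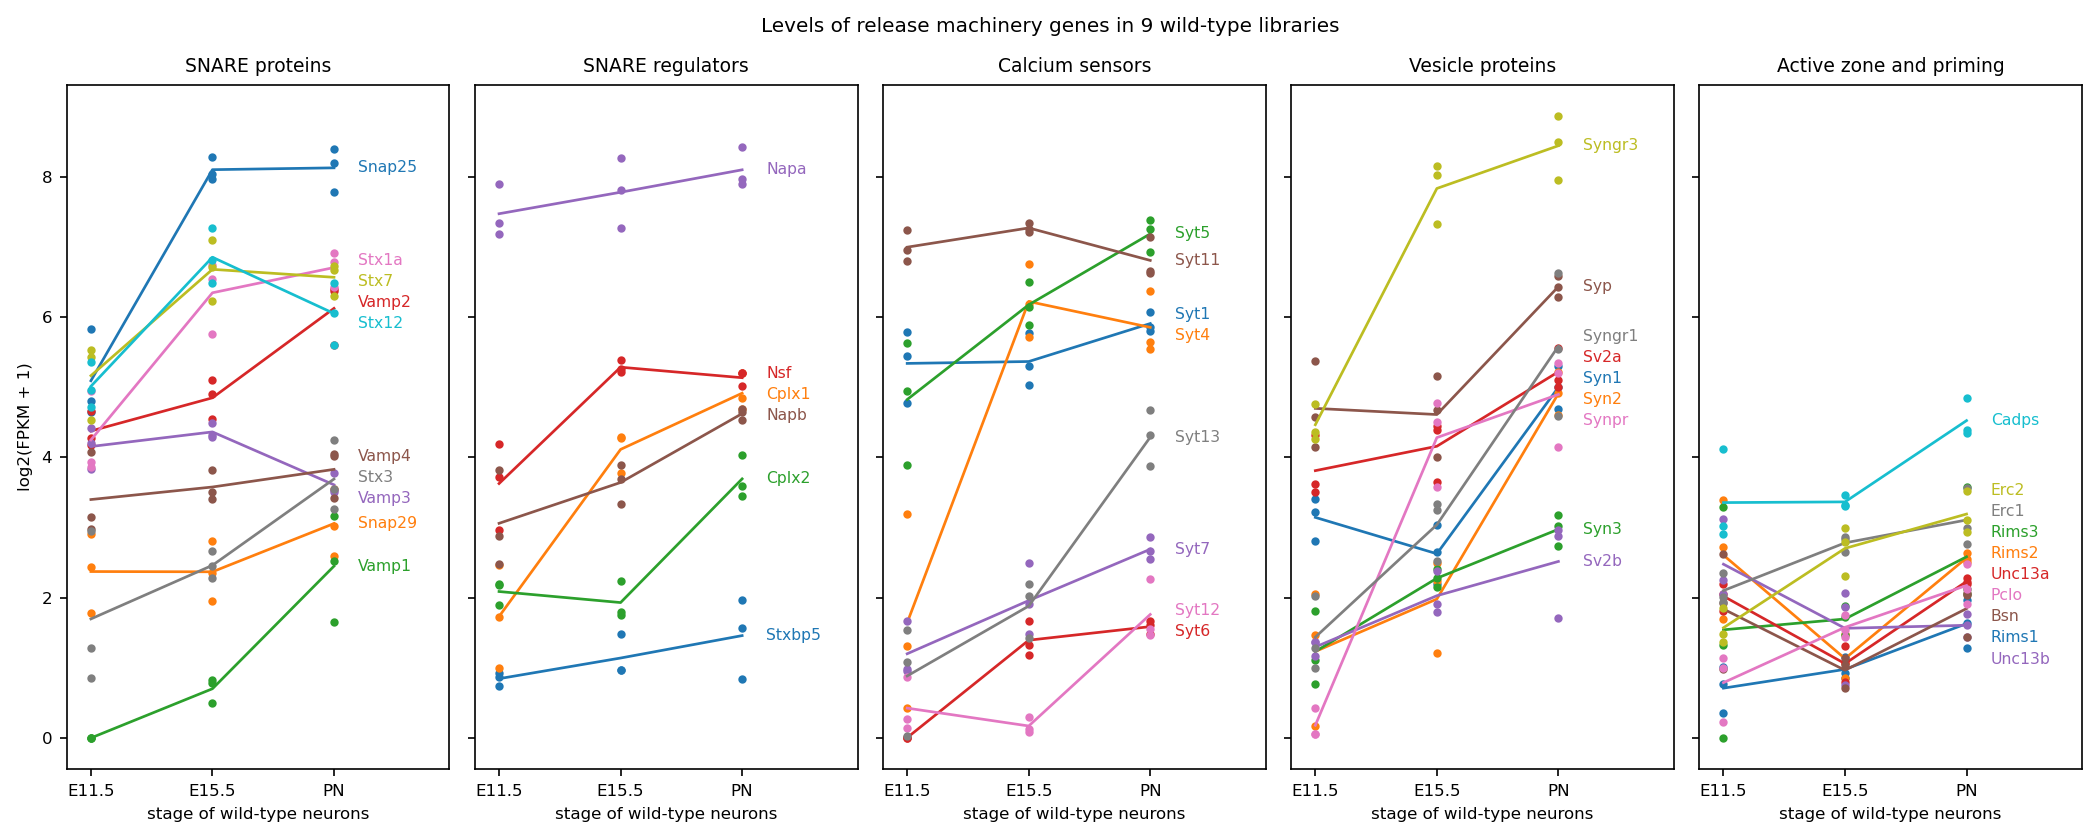
Points give log2(FPKM + 1) in each of the 9 wild-type libraries at E11.5, E15.5 and PN, and lines join the stage means, for the 43 tested genes in 5 role panels (Snap91 is not drawn). Vesicle proteins end higher than they start in every case, Snap25 and Syngr3 reach their high level by E15.5, and most active zone genes stay near the bottom of the axis.

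Libraries of a stage correlated at Pearson r 0.903 to 0.966 on the log2 scale, and libraries of different stages at 0.794 to 0.888. Read numbers are not given in the files, so depth is unknown. The 11 serotonin neuron markers summed to 1095 to 1504 FPKM at E11.5, 505 to 604 at E15.5 and 501 to 754 at PN, with none at 0 throughout a stage. In the earlier interval, in which 14 release genes rose, 7 of the 11 fell (Fev, Tph2, Slc6a4, Ddc, Gata2, Lmx1b and Slc22a3) and 0 rose, and in the later 1 rose and 3 fell. Markers of other cells also moved with stage. The summed level of 10 microglia genes was 7.61 to 14.4 FPKM at E11.5, 13.6 to 34.2 at E15.5 and 124 to 1178 at PN, and 9 of 9 tested rose from E11.5 to PN. The summed level of 9 astrocyte genes was 60.7 to 142 FPKM at E11.5, 68.8 to 188 at E15.5 and 719 to 4952 at PN, and 6 of 7 tested rose over that span. Apoe made up most of the PN sums, at 1244.5, 4697.5 and 566 FPKM. In the earlier interval Slc1a3, Aldh1l1, Sparcl1 and Aldoc rose and Apoe fell, and in the later Aqp4 and Apoe rose. Library PN b held the highest sum for both lists. Progenitor genes summed to 149 to 235, 912 to 1694 and 331 to 962 FPKM in the order of the stages, and 8 oligodendrocyte genes to 22.5 to 32.1, 48.3 to 126 and 37.1 to 48.0. The progenitor sums were mostly Fabp7, with means of 178, 1347 and 563 FPKM. Of 6 tested progenitor genes, Fabp7 rose and Sox2 fell in the earlier interval. Over the whole span Hes5 and Fabp7 rose and Nes fell. The 14 immediate early genes summed to 85.7 to 170 FPKM at E11.5, 27.1 to 36.1 at E15.5 and 232 to 344 at PN, and 11 of 11 tested rose in the later interval. Of these, Npas4, Nr4a1 and Atf3 reached 1 FPKM at PN alone, as did the microglia genes C1qc and Csf1r. They passed the filter only through the stage where they were high, so their place in these counts is no test. The 8 genes of dopamine, noradrenaline and acetylcholine neurons summed to 0.0955 to 0.569 FPKM at E11.5, 3.57 to 8.25 at E15.5 and 3.85 to 65.96 at PN, with Dbh and Phox2a at 0 in every library. Th, the rate-limiting enzyme of catecholamine synthesis, went from a mean of 0.0274 FPKM at E11.5 to 6.39 at E15.5 and stood at 12.1, 64.7 and 3.42 in the PN libraries. It rose in the earlier interval by 2.77 (SE 0.74, adjusted p = 0.0148) and over the whole span by 3.93 (SE 0.74, adjusted p = 0.00176). The genes of glutamate, GABA and glycine neurons kept a sum of 93.8 to 150 FPKM throughout, with Slc17a7 at 0 in every library. Without PN b, 28 of the 31 release genes were called from E11.5 to PN, and 8 of the 13 from E15.5 to PN, so that Vamp2, Sv2a, Rims2, Unc13a and Cadps were no longer called in the later interval. The part that the shift in serotonin neuron markers, the other cells and the immediate early response have in the release genes' changes was not tested. In bulk libraries, fewer cells of a type and less RNA per cell cannot be told apart.

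Both plasma membrane partners of neuronal fusion, Snap25 and Stx1a, were called higher before E15.5, and the vesicle SNAREs Vamp1 and Vamp2 after it. Vamp1 entered the test only through PN, and the authors' deposited table also called its earlier rise (q = 3.88e-04). The later call of Vamp2 was lost without library E15.5 a, PN a or PN b. Of these 4, the difference between the intervals passed for Snap25 and did not for Stx1a, -1.74 (SE 0.62, adjusted p = 0.0605), Vamp1, 1.05 (SE 0.65, adjusted p = 0.267), or Vamp2, 0.80 (SE 0.53, adjusted p = 0.301). Of 10 SNARE genes, 4 rose from E11.5 to E15.5, 2 from E15.5 to PN and 7 over the whole span, and 0 fell.

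Snap25, the SNAP-25 gene, stood at 23.96, 26.95 and 55.7 FPKM at E11.5, 263, 249.5 and 311 at E15.5 and 219, 293 and 336 at PN. All E15.5 libraries lay far above all E11.5 libraries and in the range of PN, with an early log2 rise of 3.01 (SE 0.32, adjusted p = 5.67e-05) and a later change of 0.03 (SE 0.32, adjusted p = 0.965). Stx1a, which encodes syntaxin 1A, stood at 14.3, 29.9 and 13.5 FPKM at E11.5, 92.3, 106 and 52.9 at E15.5 and 119, 109 and 84.97 at PN. It rose early by 2.10 (SE 0.36, adjusted p = 0.001205), and the E15.5 and PN libraries overlapped. Its relative Stx7, a syntaxin of late endosomes, stood at 22.2, 45.2 and 41.9 FPKM at E11.5, 104, 73.8 and 135 at E15.5 and 78.1, 101 and 104 at PN. It rose early by 1.52 (SE 0.33, adjusted p = 0.00495) and did not differ by the test afterwards (-0.11 (SE 0.33, adjusted p = 0.838)).

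Stx12, also called syntaxin 13 and found on recycling endosomes, stood at 30.3, 25.3 and 39.9 FPKM at E11.5, 111, 88.4 and 153 at E15.5 and 47.6, 65.9 and 88.4 at PN. The E11.5 libraries were the lowest, the highest PN library overlapped the lowest of E15.5, and the early rise was 1.84 (SE 0.31, adjusted p = 0.00124). The later change of -0.80 (SE 0.31, adjusted p = 0.0899) did not pass by limma, whereas the q-value of 7.24e-04 in the authors' deposited table for E15.5 to PN did. The difference between the intervals passed at -2.64 (SE 0.54, adjusted p = 0.00555). Over the whole span Stx12 rose by 1.04 (SE 0.31, adjusted p = 0.0268), a call lost without library E11.5 a, E11.5 b, PN b or PN c (adjusted p = 0.11 without PN c). A Pet-1 peak covered its start, at chr4:132884012-132885199 in mm10. The 250 bases before the start, which lie inside that peak on the minus strand at chr4:132884459-132884708 (RefSeq, GRCm38.p6), are shown in lower case because neither ETS core searched, CGGAA or AGGAA on either strand, occurs in them.
Stx12: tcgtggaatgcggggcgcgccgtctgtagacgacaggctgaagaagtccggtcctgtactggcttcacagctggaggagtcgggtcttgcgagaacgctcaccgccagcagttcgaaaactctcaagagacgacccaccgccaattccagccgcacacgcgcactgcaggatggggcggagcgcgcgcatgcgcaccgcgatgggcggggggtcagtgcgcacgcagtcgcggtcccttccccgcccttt

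Vamp2 encodes synaptobrevin 2, the main vesicle SNARE of neurons, and stood at 24.3, 18.4 and 17.1 FPKM at E11.5, 22.3, 28.9 and 33.4 at E15.5 and 81.6, 83.6 and 47.4 at PN. The PN libraries were above all others, with E11.5 and E15.5 overlapping. It rose late by 1.27 (SE 0.31, adjusted p = 0.0131), a call lost without library E15.5 a, PN a or PN b (adjusted p = 0.0601 without PN a). Vamp1, its close relative, was listed at 0 in the 3 E11.5 libraries, at 0.725, 0.767 and 0.411 FPKM at E15.5 and at 2.16, 4.76 and 7.95 at PN. The stages did not overlap, and the later rise was 1.75 (SE 0.37, adjusted p = 0.00735). Vamp1 reached 1 FPKM at PN alone, so it entered the test only through the stage where it was high. The earlier change of 0.70 (SE 0.37, adjusted p = 0.179) did not pass, but it was called with 0.1 in place of 1 FPKM added (adjusted p = 0.0104), in a fit of the 2 groups alone (adjusted p = 0.0414) and by the authors' deposited table (q = 3.88e-04). Stx3, a syntaxin of apical membranes and ribbon synapses, stood at 1.44, 0.805 and 6.74 FPKM at E11.5, 4.45, 5.32 and 3.85 at E15.5 and 10.7, 8.62 and 18.1 at PN. Its PN libraries were the highest, and only the whole span gave a call in the main fit, 1.99 (SE 0.50, adjusted p = 0.0107), lost without library PN c (adjusted p = 0.0514). The later rise was called by the authors' deposited table (log2 1.47, q = 0.00160). It was also called by limma in a fit of the 2 groups alone (adjusted p = 0.0243) and without library E11.5 c (adjusted p = 0.0320).

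Of the SNAREs that were called in no comparison, Vamp3 (cellubrevin, of recycling endosomes) was the one gene whose PN libraries, at 10.6 to 12.8 FPKM, all lay below the E15.5 libraries, at 18.5 to 21.5. Its later change was -0.75 (SE 0.29, adjusted p = 0.0823). It was called lower at adjusted p = 0.0437 when no filter on low values was applied, and at q = 0.0303 in the authors' deposited table. Vamp4 ran from 6.86 to 15.8 FPKM and Snap29 from 2.43 to 10.7 over the 9 libraries, each with overlapping stages. A Pet-1 peak covered the start of Snap29 at chr16:17405606-17406459.

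Among the 6 regulators of SNARE assembly and disassembly, 2 rose early (Cplx1 and Nsf), 1 late (Cplx2) and 4 over the whole span, and 0 fell. Cplx1, which encodes complexin 1, stood at 1.01, 2.31 and 4.499 FPKM at E11.5, 18.4, 18.5 and 12.7 at E15.5 and 27.8, 35.8 and 24.9 at PN. It climbed at each stage without overlap, by 2.38 (SE 0.39, adjusted p = 9.42e-04) in the earlier interval and 0.80 (SE 0.39, adjusted p = 0.163) in the later, of which the first passed. The authors' deposited table called the later rise of Cplx1 as well (log2 0.81, q = 0.0143). Cplx2, which encodes complexin 2, stood at 3.54, 2.71 and 3.56 FPKM at E11.5, 2.39, 3.71 and 2.47 at E15.5 and 9.95, 15.4 and 11.1 at PN. Here E11.5 and E15.5 overlapped and PN was above both, with a later rise of 1.76 (SE 0.33, adjusted p = 0.00378). The difference between its intervals passed at 1.92 (SE 0.58, adjusted p = 0.03199), a call lost without library E15.5 a, E15.5 b, E15.5 c, PN b or PN c (adjusted p = 0.121 without E15.5 a).

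Nsf, the ATPase that separates spent SNARE complexes, stood at 12.2, 6.79 and 17.3 FPKM at E11.5, 40.7, 37.2 and 36.1 at E15.5 and 35.7, 31.2 and 35.6 at PN. It rose early by 1.66 (SE 0.32, adjusted p = 0.00289), and its PN libraries lay just under those of E15.5 without passing the test (-0.15 (SE 0.32, adjusted p = 0.783)). The difference between its intervals, -1.81 (SE 0.56, adjusted p = 0.0353), was lost without any library but E11.5 a, E11.5 b and E11.5 c (adjusted p = 0.125 without E15.5 a). Napa encodes alpha-SNAP, the adaptor for Nsf, and at 144 to 343 FPKM it had the highest mean level of all 50 genes, with 236, 162 and 144 FPKM at E11.5, 306, 223 and 153 at E15.5 and 237, 343 and 249.7 at PN. Neighbouring stages overlapped, and it was called in no comparison (0.63 (SE 0.30, adjusted p = 0.147) over the whole span). Napb, the neuronal beta-SNAP, stood at 4.56, 6.37 and 13.1 FPKM at E11.5, 9.09, 11.97 and 13.8 at E15.5 and 24.1, 22.2 and 24.7 at PN. Its PN libraries were the highest, and the whole span gave a rise of 1.56 (SE 0.37, adjusted p = 0.00674). The later rise of Napb did not pass in the main fit (adjusted p = 0.0766). It was called by the authors' deposited table (log2 1.03, q = 3.88e-04) and by a limma fit of the 2 groups alone (adjusted p = 0.0254). Stxbp5 (tomosyn, an inhibitor of SNARE assembly) stayed between 0.665 and 2.90 FPKM with no call.

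Of the 8 tested calcium sensors and their relatives, 6 rose from E11.5 to PN and 0 fell. Syt1, the main sensor of synchronous release, was called in no stage comparison. In the earlier interval 3 rose (Syt4, Syt5 and Syt6), and in the later 2 rose (Syt12 and Syt13).

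Syt1 stood at 42.6, 26.5 and 54.2 FPKM at E11.5, 38.4, 31.6 and 53.5 at E15.5 and 54.5, 56.95 and 66.02 at PN. The E11.5 and E15.5 libraries spanned the same range, and the PN libraries lay above both by a small margin, with a whole-span change of 0.57 (SE 0.31, adjusted p = 0.202). At E11.5 its mean of 41.1 FPKM was exceeded among the 50 genes by Napa and Syt11 alone. Syt1 was the release gene called lower without Pet-1 in both knockout tables, as described further on. The 245 bases before its start on the minus strand, at chr10:109010981-109011225 (RefSeq, GRCm38.p6), are therefore shown. Neither CGGAA nor AGGAA occurs in them, AGGAA occurs before the other start listed for the gene, and no Pet-1 peak was listed in the gene or in the 5000 bases before it.
Syt1: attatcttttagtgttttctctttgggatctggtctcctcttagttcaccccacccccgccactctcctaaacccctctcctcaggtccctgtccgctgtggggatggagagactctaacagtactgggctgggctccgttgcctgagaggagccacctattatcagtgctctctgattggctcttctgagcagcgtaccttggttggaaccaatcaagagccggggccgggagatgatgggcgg

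Syt4, a synaptotagmin of dense-core vesicles that does not bind calcium like Syt1, stood at 0.345, 1.49 and 8.09 FPKM at E11.5, 72.1, 51.3 and 107 at E15.5 and 45.7, 48.8 and 81.7 at PN. Every E15.5 and PN library lay above every E11.5 library, and the early log2 rise of 4.58 (SE 0.57, adjusted p = 1.80e-04) was the largest of the 44 genes. The later change was -0.37 (SE 0.57, adjusted p = 0.688), and the difference between the intervals passed at -4.95 (SE 0.99, adjusted p = 0.00472). Syt11, a related synaptotagmin without calcium binding, stood at 109.7, 123 and 150.3 FPKM at E11.5, 147, 161 and 152 at E15.5 and 100.2, 97.6 and 139 at PN. It was already above 100 FPKM at E11.5, its ranges overlapped between E11.5 and PN, and it was called in no comparison. A Pet-1 peak at chr3:88771955-88772746 covered its listed start. That start lies inside the gene span, which on the minus strand begins at chr3:88775159. In the 250 bases before that start, 30 bases at chr3:88772603-88772632 (minus strand, GRCm38.p6) hold the ETS core CGGAA on both strands, overlapping in the 8 capitals.
Syt11: tcgaagagcTTCCGGAAtctttcgggcaga

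Syt5, a calcium-binding synaptotagmin, stood at 13.9, 48.3 and 29.9 FPKM at E11.5, 89.1, 69.7 and 57.99 at E15.5 and 151, 166 and 121 at PN, the highest mean of the sensors at PN. The 3 stages did not overlap, and the early rise of 1.35 (SE 0.38, adjusted p = 0.0199) was lost without library E11.5 a, E15.5 a or E15.5 b (adjusted p = 0.0775 without E15.5 a), whereas that over the whole span was 2.36 (SE 0.38, adjusted p = 6.58e-04). The later rise of Syt5 did not pass in the main fit (adjusted p = 0.0806). It was called by the authors' deposited table (q = 3.88e-04) and by a limma fit of the 2 groups alone (adjusted p = 0.0168). Syt6, another calcium-binding form, was near 0 at E11.5 and low thereafter, with 0.00912, 0 and 0 FPKM at E11.5, 1.498, 1.28 and 2.18 at E15.5 and 2.05, 1.798 and 2.18 at PN, and rose early by 1.39 (SE 0.29, adjusted p = 0.00395). The authors' deposited table did not call this early rise of Syt6 (q = 0.379). Syt7, the sensor of slow, asynchronous release, stood at 0.9703, 2.17 and 0.945 FPKM at E11.5, 2.74, 4.62 and 1.79 at E15.5 and 6.25, 5.34 and 4.84 at PN. Its PN libraries were above the rest, and only the whole span passed by limma, 1.49 (SE 0.37, adjusted p = 0.0102). In the authors' deposited table Syt7 was called higher in the earlier (q = 0.0198) and the later interval (q = 0.0447).

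Syt13, which lacks calcium binding, stood at 1.11, 0.0211 and 1.91 FPKM at E11.5, 3.07, 3.56 and 1.69 at E15.5 and 18.9, 13.7 and 24.5 at PN. All PN libraries were above all earlier ones, with a later rise of 2.41 (SE 0.44, adjusted p = 0.00307), a call that ended when 0.1 in place of 1 FPKM was added before taking logs (adjusted p = 0.0526). The earlier rise of Syt13 was called by the authors' deposited table (log2 1.49, q = 0.0314) and not by limma (adjusted p = 0.107). Syt12, which also lacks it, stood at 0.818, 0.205 and 0.105 FPKM at E11.5, 0.0633, 0.0899 and 0.231 at E15.5 and 3.83, 1.75 and 1.92 at PN. The PN libraries were above all others, with a rise of 1.59 (SE 0.33, adjusted p = 0.00613), and the difference between its intervals, 1.84 (SE 0.57, adjusted p = 0.0347), was lost without library E15.5 a, E15.5 b, E15.5 c or PN a (adjusted p = 0.111 without E15.5 a). Syt12 reached 1 FPKM at PN alone, so it entered the test only through the stage where it was high. The authors' deposited table did not call its later rise (q = 0.379). Syt2 and Doc2b did not reach 1 FPKM in any library, with highest values of 0.747 and 0.773, both at PN.

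All 9 tested vesicle proteins were called higher from E11.5 to PN, 4 in the earlier interval and 5 in the later, with a whole-span median log2 change of 1.85. The difference between the intervals passed toward the earlier one for the synaptogyrin Syngr3 and synaptoporin (Synpr), and toward the later one for synaptophysin (Syp) and the synapsin Syn1. For Syn2 it did not pass, 2.18 (SE 0.86, adjusted p = 0.0888).

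Syngr3, a synaptogyrin of vesicle membranes, stood at 18.3, 19.5 and 26.2 FPKM at E11.5, 283, 258 and 159.6 at E15.5 and 361, 467 and 247 at PN. Its E15.5 and PN libraries were above 150 FPKM throughout and overlapped each other, with an early rise of 3.37 (SE 0.31, adjusted p = 2.39e-05). The later rise of Syngr3 was called by the authors' deposited table (log2 0.59, q = 0.00406) and not by limma (adjusted p = 0.185). Synpr, a relative of synaptophysin, went from near 0 to a well expressed gene, with 0.0397, 0.343 and 0.0427 FPKM at E11.5, 21.6, 10.9 and 26.4 at E15.5 and 16.7, 39.5 and 35.7 at PN. The early rise was 4.10 (SE 0.42, adjusted p = 5.07e-05) and the later change 0.62 (SE 0.42, adjusted p = 0.327). For Synpr the authors' deposited table did not call the early rise (q = 0.373) and called the later one (log2 0.66, q = 0.0240). Syngr1 stood at 1.43, 1 and 3.08 FPKM at E11.5, 9.14, 8.49 and 4.77 at E15.5 and 45.4, 97.4 and 23.1 at PN. No stage overlapped another, and it rose early by 1.60 (SE 0.49, adjusted p = 0.0287) and late by 2.54 (SE 0.49, adjusted p = 0.00422). The early call was lost without library E11.5 a, E11.5 b, E15.5 a or E15.5 b (adjusted p = 0.09603 without E15.5 a). The authors' deposited table did not call this early rise of Syngr1 (q = 0.101).

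Syp, which encodes synaptophysin, a major membrane protein of synaptic vesicles, stood at 40.5, 22.7 and 16.7 FPKM at E11.5, 34.8, 24.4 and 14.98 at E15.5 and 94.5, 77.3 and 85.2 at PN. E11.5 and E15.5 covered the same range, and all PN libraries were above them, by 1.82 (SE 0.37, adjusted p = 0.00539). The difference between its intervals, 1.91 (SE 0.64, adjusted p = 0.0483), was lost without any library but E11.5 c and E15.5 a (adjusted p = 0.221 without E15.5 c). Sv2a, a vesicle glycoprotein found at most synapses, stood at 18.9, 11.2 and 10.3 FPKM at E11.5, 20.7, 19.9 and 11.51 at E15.5 and 46.04, 30.95 and 33.3 at PN. It rose late by 1.06 (SE 0.34, adjusted p = 0.0446), a call lost without any library but E11.5 a and E11.5 c (adjusted p = 0.163 without PN a), and by 1.41 (SE 0.34, adjusted p = 0.00817) over the whole span. Sv2b stood at 1.57, 1.24 and 1.57 FPKM at E11.5, 2.74, 2.49 and 4.19 at E15.5 and 6.8, 2.27 and 6.33 at PN. By limma it was called over the whole span alone, by 1.22 (SE 0.40, adjusted p = 0.0367), lost without any library but E15.5 a, E15.5 c and PN b (adjusted p = 0.132 without PN a). The authors' deposited table called its early rise (log2 1.11, q = 0.0376). Sv2c reached 1 FPKM in 2 libraries, with a highest value of 2.08.

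The synapsins tether vesicles to each other and to actin. Syn1 stood at 5.97, 9.61 and 8.33 FPKM at E11.5, 7.17, 5.29 and 3.57 at E15.5 and 38.2, 31.2 and 24.9 at PN. The E15.5 libraries were mostly the lowest and PN the highest, and the later rise was 2.37 (SE 0.34, adjusted p = 8.23e-04), with a difference between the intervals of 2.89 (SE 0.59, adjusted p = 0.005203). Syn2 stood at 0.126, 3.16 and 1.77 FPKM at E11.5, 1.31, 3.72 and 4.64 at E15.5 and 36, 29.1 and 23.4 at PN. It rose late by 2.93 (SE 0.50, adjusted p = 0.00216), and all PN libraries were above all others. Syn3, a synapsin expressed early in neuronal development, stood at 2.52, 1.16 and 0.704 FPKM at E11.5, 4.31, 3.84 and 3.42 at E15.5 and 7.096, 5.64 and 8.03 at PN. The stages did not overlap, and the early rise of 1.04 (SE 0.36, adjusted p = 0.0471) was lost without any library but E11.5 a (adjusted p = 0.133 without E11.5 c), whereas the whole span gave 1.74 (SE 0.36, adjusted p = 0.00336). In RefSeq, Timp1, Timp4 and Timp3 lie within or across the spans of Syn1, Syn2 and Syn3, and since no label states that fragments were assigned by strand, the values of these 3 genes are uncertain. Of the 50 genes, 27 overlap another RefSeq gene or gene model.

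The active zone and priming genes were mostly low, and over the whole span 40.0% of those tested were called, beside 66.7% to 100% of the other roles. The difference between roles was not tested. Of 10 tested, 1 rose and 2 fell in the earlier interval, 3 rose in the later, and 4 were called higher over the whole span. Cadps alone of them reached 10 FPKM in all PN libraries. Cadps encodes CAPS-1, a priming protein of dense-core vesicles, and stood at 7.15, 6.53 and 16.4 FPKM at E11.5, 9.98, 8.94 and 9.02 at E15.5 and 27.7, 19.9 and 19.2 at PN. E11.5 and E15.5 overlapped and PN was above both, with a later rise of 1.16 (SE 0.36, adjusted p = 0.0401), lost without any library but E11.5 a, E11.5 b and E11.5 c (adjusted p = 0.147 without PN a). Its whole-span rise of 1.17 (SE 0.36, adjusted p = 0.0299) was lost without library E11.5 a, E11.5 b, PN a, PN b or PN c (adjusted p = 0.111 without PN a).

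Rims2 and Unc13a shared a dip at E15.5. Rims2, which links active zones to calcium channels and Rab3, stood at 9.44, 2.25 and 5.63 FPKM at E11.5, 0.802, 1.098 and 1.78 at E15.5 and 4.87, 4.66 and 5.24 at PN. Its E15.5 libraries were the lowest, and it fell by 1.47 (SE 0.43, adjusted p = 0.0218) and then rose by 1.43 (SE 0.43, adjusted p = 0.0328). The fall was lost without library E11.5 a, E15.5 a or E15.5 b (adjusted p = 0.0773 without E15.5 a), the rise without any library but E11.5 a, E11.5 b and E11.5 c (adjusted p = 0.112 without E15.5 a) and the difference between the intervals, 2.91 (SE 0.74, adjusted p = 0.0152), without library E15.5 a or E15.5 b (adjusted p = 0.0749 without E15.5 a). Unc13a encodes Munc13-1, the main priming protein of excitatory terminals, and stood at 2.52, 3.59 and 3.13 FPKM at E11.5, 1.49, 1.1 and 0.731 at E15.5 and 3.595, 3.65 and 3.84 at PN. All E15.5 libraries were below all others. It fell by 0.96 (SE 0.32, adjusted p = 0.0396) and rose by 1.17 (SE 0.32, adjusted p = 0.0227). The fall was lost without any library but E11.5 a (adjusted p = 0.134 without E15.5 c), the rise without library E15.5 b, E15.5 c, PN a, PN b or PN c (adjusted p = 0.0861 without E15.5 c) and the difference, 2.13 (SE 0.55, adjusted p = 0.0166), without library E15.5 b or E15.5 c (adjusted p = 0.08504 without E15.5 c).

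Erc2 and Erc1 encode ELKS scaffold proteins of the active zone. Erc2 stood at 2.63, 1.59 and 1.79 FPKM at E11.5, 3.96, 5.95 and 6.996 at E15.5 and 6.67, 7.65 and 10.5 at PN, with E15.5 and PN above E11.5. The early rise was 1.13 (SE 0.35, adjusted p = 0.0295), lost without library E11.5 b, E11.5 c, E15.5 b or E15.5 c (adjusted p = 0.104 without E15.5 c). Erc1 stood at 3.02, 4.11 and 2.84 FPKM at E11.5, 6.15, 5.25 and 6.25 at E15.5 and 5.81, 10.8 and 6.93 at PN. It was called over the whole span alone, 1.01 (SE 0.34, adjusted p = 0.0439), lost without any library but E11.5 b and PN a (adjusted p = 0.173 without PN b) and under upper quartile scaling or median centring. Pclo, which encodes the giant scaffold Piccolo, stood at 1.199, 0.172 and 0.999 FPKM at E11.5, 1.89, 1.71 and 2.38 at E15.5 and 3.37, 2.76 and 4.57 at PN. It rose over the whole span by 1.38 (SE 0.35, adjusted p = 0.0109), without overlap between any 2 stages. Neither interval passed by limma, whereas the authors' deposited table called Pclo higher in the earlier (q = 0.00515) and the later (q = 0.00901).

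The tested genes of this role without a call by limma were Bsn (Bassoon), Rims1, Rims3 and Unc13b. Bsn ran from 0.640 to 5.14 FPKM with the E15.5 libraries at 0.640 to 1.21, and its changes of -0.87 (SE 0.42, adjusted p = 0.1401) and 0.88 (SE 0.42, adjusted p = 0.161) did not pass. The authors' deposited table called both, with log2 ratios of -1.57 (q = 7.24e-04) and 1.44 (q = 0.00132). Without library E11.5 c, limma called the fall (adjusted p = 0.0290) and the difference between the intervals (adjusted p = 0.0281). Rims1 had a whole-span change of 0.92 (SE 0.32, adjusted p = 0.0512), just short of the threshold. Rims3 spread from 0 to 8.84 FPKM within E11.5 alone. Unc13b was the one gene of this role with PN libraries, at 1.72 to 2.41 FPKM, all below the E11.5 libraries, at 3.16 to 7.73, with a change of -0.87 (SE 0.43, adjusted p = 0.153). The authors' deposited table called it lower from E11.5 to E15.5 (log2 -1.15, q = 0.0131). Rims4, Unc13c and Cadps2 were too low to test, with highest values of 1.22, 2.15 and 0.790 FPKM. Snap91, which encodes the clathrin adaptor AP180, stood at 2.61, 8.27 and 11.7 FPKM at E11.5, 9.97, 12.4 and 9.73 at E15.5 and 22.6, 16.03 and 21.9 at PN. It rose over the whole span by 1.48 (SE 0.43, adjusted p = 0.0213), lost without library E11.5 a, PN a or PN c (adjusted p = 0.0718 without PN a). The later rise of Snap91 was called by the authors' deposited table (log2 0.92, q = 0.00240) and by a limma fit of the 2 groups alone (adjusted p = 0.0482).

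**Figure D2:**
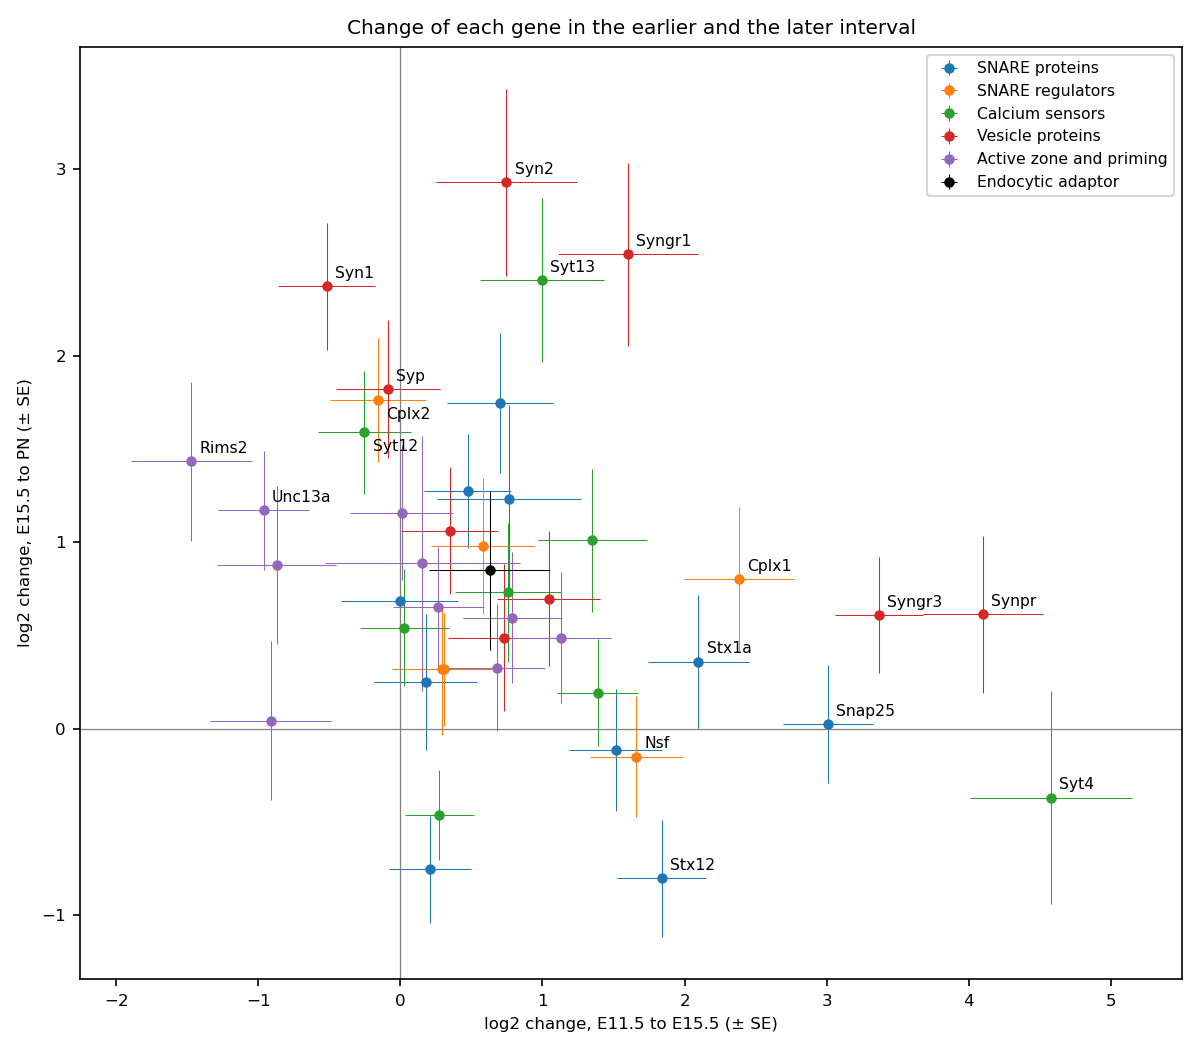
Each point is 1 of the 44 tested genes, with the log2 change from E11.5 to E15.5 on the horizontal axis and from E15.5 to PN on the vertical axis, bars of ± 1 SE and colours for the roles. Syt4, Synpr, Syngr3 and Snap25 lie far to the right near the horizontal line, Syn1, Syp and Cplx2 lie high near the vertical line, and Rims2 and Unc13a lie to the upper left; the axes share the E15.5 libraries.

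Ratios between related genes showed which member of a pair led at each stage. For 12 pairs with both genes tested, the log2 ratio of (FPKM + 1) was compared over the 3 stages with an exact permutation test of the F statistic over 1680 arrangements of the libraries, adjusted over the 12 pairs. The ratio passed for 3. Cplx1 over Cplx2 had a mean log2 ratio of -0.36 ± 0.74 (SD, n = 3) at E11.5, 2.18 ± 0.29 at E15.5 and 1.22 ± 0.15 at PN (exact p = 0.00357, adjusted p = 0.0214). Complexin 2 RNA was thus the higher in 2 of 3 libraries at E11.5, and complexin 1 RNA in every later library. Snap25 over Snap29 went from 2.72 ± 0.75 to 5.73 ± 0.33 and 5.07 ± 0.19 (exact p = 0.00357, adjusted p = 0.0214), so that the neuronal gene led at each stage and by more from E15.5 on. Syp over Synpr went from 4.52 ± 0.69 to 0.33 ± 0.98 and 1.54 ± 0.79 (exact p = 0.00714, adjusted p = 0.0286), with 1 E15.5 library in which Synpr was the higher.

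The other 9 pairs did not pass. Syngr3 over Syngr1 stood at 3.03, 4.79 and 2.86 and Syt4 over Syt11 at -5.35, -1.05 and -0.95 in the order of the stages (exact p = 0.0250 and 0.0286, adjusted p = 0.0686 for both). Rims1 over Rims2 gave -1.89, -0.15 and -0.94 (exact p = 0.05, adjusted p = 0.1). Syn1 over Syn2 had means of 1.91, 0.65 and 0.09 (exact p = 0.0857, adjusted p = 0.129), and the 3 PN libraries lay between 0.08 and 0.10. Vamp2 stayed above Vamp1 and Napa above Napb in all 9 libraries. A ratio within a library shows unequal change and does not show that either gene was steady.

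**Figure D3:**
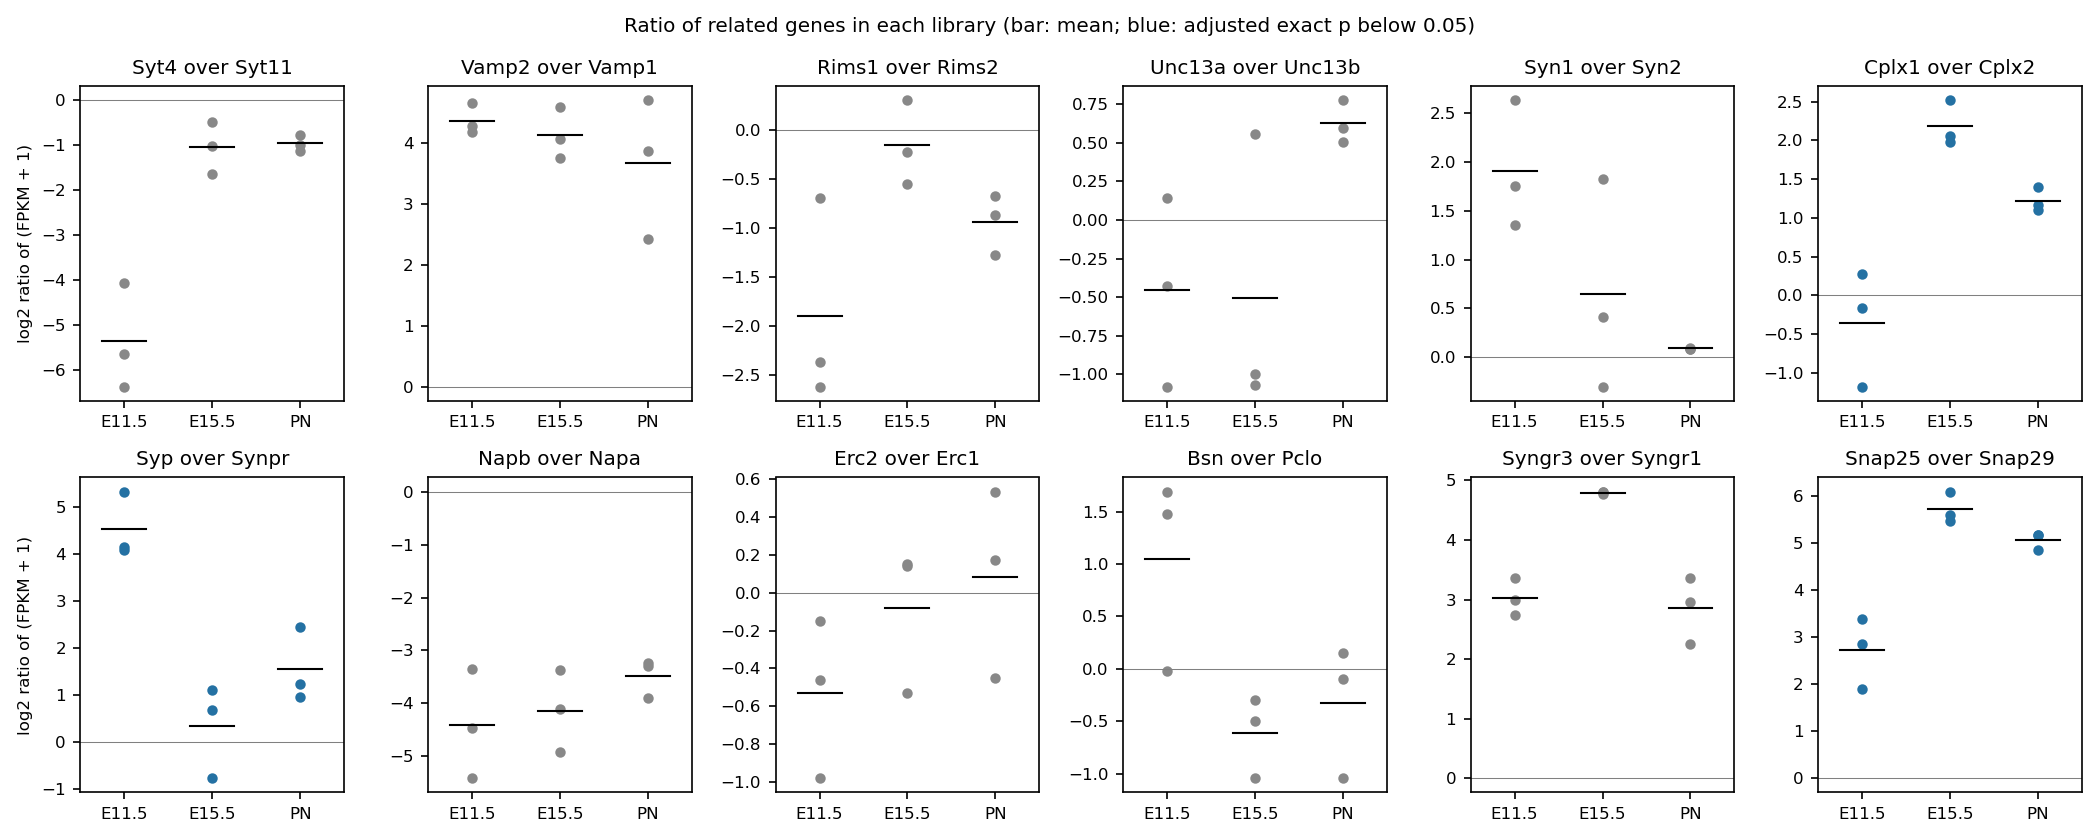
Each panel gives the log2 ratio of (FPKM + 1) of 2 related genes in each of the 9 wild-type libraries, with a bar at the stage mean and its own vertical scale. The 3 blue pairs, Cplx1 over Cplx2, Syp over Synpr and Snap25 over Snap29, passed the adjusted exact test, and the horizontal grey line marks equal levels where it is in range.

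A further 113 gene names of the same pathway were listed, of which 112 were in the matrix and 96 were tested. Among the names, Ap180 stands for the protein of Snap91, which is already in the release list and so is no further gene. From E11.5 to E15.5, 34 rose and 6 fell, in the later interval 18 rose and 4 fell, and between E11.5 and PN 43 rose and 0 fell, with median log2 changes of 0.68, 0.42 and 0.77. The genes named here were taken from the 2 highest called members of each list. Among 19 other SNAREs and proteins that bind them, 6 rose over the whole span. Snap47, a SNAP-25 relative, stood at 144, 175 and 166 FPKM at E11.5, 755, 724 and 534 at E15.5 and 518, 585 and 563 at PN, with an early rise of 2.03 (SE 0.22, adjusted p = 7.22e-05).

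Of 14 other sensors and Rab3 proteins, 8 rose over the whole span, 7 early and 4 late, and 2 fell late. Rab3a, the main Rab of synaptic vesicles, stood at 377, 265 and 198 FPKM at E11.5, 483, 430.1 and 329 at E15.5 and 1021, 1119 and 769 at PN and rose late by 1.23 (SE 0.28, adjusted p = 0.00977). Rab3b stood at 24.1, 17.6 and 25.1 FPKM at E11.5, 37.7, 21.7 and 28.4 at E15.5 and 59.04, 60.6 and 73.9 at PN and rose late by 1.14 (SE 0.29, adjusted p = 0.0163). Of 19 other vesicle and active zone proteins 8 rose early and 5 late. Lin7b, of a scaffold that binds Cask, stood at 3.56, 0.151 and 12.9 FPKM at E11.5, 26.1, 24.8 and 11.2 at E15.5 and 220.4, 224 and 106 at PN, with rises of 2.29 (SE 0.70, adjusted p = 0.0286) and 3.10 (SE 0.70, adjusted p = 0.00956).

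The 26 endocytosis genes moved both ways in the earlier interval, with 8 up and 5 down, and 8 rose in the later with 0 down. In that earlier interval 2 subunits of the AP2 clathrin adaptor moved in opposite directions. Ap2m1 stood at 229.8, 327 and 324 FPKM at E11.5, 1169, 906 and 625 at E15.5 and 564, 779 and 476 at PN and rose early by 1.59 (SE 0.29, adjusted p = 0.00182). Ap2s1 stood at 702, 513 and 399 FPKM at E11.5, 269, 225 and 144 at E15.5 and 669.7, 908 and 483 at PN, and it fell by 1.34 (SE 0.32, adjusted p = 0.00818) and then rose by 1.69 (SE 0.32, adjusted p = 0.00359). Of 18 genes of the vesicular proton pump and the transmitter transporters, 9 rose early, whereas 1 rose and 2 fell late. Atp6v0c, the proteolipid subunit of the pump, stood at 53.8, 68.3 and 36.3 FPKM at E11.5, 1299, 1204 and 568 at E15.5 and 319, 449.9 and 217 at PN, and it rose by 4.21 (SE 0.37, adjusted p = 1.72e-05) and then fell by 1.61 (SE 0.37, adjusted p = 0.0106). Atp6v0b stood at 930.2, 652 and 571 FPKM at E11.5, 1715, 1035 and 797 at E15.5 and 1562, 1750.1 and 1019 at PN and rose over the whole span by 1.00 (SE 0.32, adjusted p = 0.03401).

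Without Pet-1 at E15.5, 1 release gene, Syt1, was called in both knockout tables, and 4 others in 1 of them. These tables are the authors' own and hold group FPKM with a q-value and no library values, so no SD can be given. A call required q under 0.05, a 1.5-fold change and 1 FPKM or more in one of the groups. Fev itself went from 31.1 to 0.422 FPKM in the authors' deposited Clontech table (q = 0.00391) and from 34.9 to 0.308 in the NuGEN one (q = 0.00206). Of 42 release genes with a test and 1 FPKM in the Clontech table, 3 were called, 2 higher and 1 lower, where 2.82% of 10939 genes were called, 0.969% higher and 1.85% lower in the knockout. Of 45 such genes in the NuGEN table, 3 were called, again 2 higher and 1 lower, where 12.7% of 11019 genes were called, 8.19% higher and 4.56% lower. Their median log2 ratio of knockout to wild type was 0.15 in the Clontech table, beside -0.02 for all genes, and -0.06 in the NuGEN table, beside 0.09. Within 1.5-fold of wild type lay 31 of 42 genes (73.8%, beside 79.5% of all genes) and 37 of 45 (82.2%, beside 73.3%).

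Syt1 fell from 43.7 to 21.0 FPKM in the authors' deposited Clontech table (log2 -1.06, q = 0.00391) and from 86.6 to 29.4 in the NuGEN table (log2 -1.56, q = 0.00206). It had the lowest ratio in both tables among the release genes at 1 FPKM or more, and it was the one call left in either when 2-fold was required. Of the other sensors and their relatives, Syt4 was called higher in the Clontech table and Syt7 and Syt13 in the NuGEN table, none in both, and the rest in neither. Syt11, for one, was listed lower in both authors' deposited tables (log2 -0.10 and -0.18). Syt4 rose from 85.4 to 170 FPKM in the authors' deposited Clontech table (log2 1.00, q = 0.00391), and stood at 170 and 241 in the NuGEN table (log2 0.50, q = 0.169). Syt7 went from 3.84 to 6.50 FPKM in the authors' deposited NuGEN table (log2 0.76, q = 0.0269) and stood at 3.10 and 4.67 in the Clontech table (log2 0.59, q = 0.232). Syt13 went from 3.86 to 7.34 in the authors' deposited NuGEN table (log2 0.93, q = 0.00837) and stood at 2.77 and 4.85 in the Clontech table (log2 0.81, q = 0.150). Bsn, the Bassoon gene, went from 0.879 to 1.74 FPKM in the authors' deposited Clontech table (log2 0.98, q = 0.0345) and stood at 1.26 and 1.63 in the NuGEN table (log2 0.37, q = 0.358).

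Below 1 FPKM in both groups, Unc13c stood at 0.195 and 0.546 FPKM in the authors' deposited NuGEN table (q = 0.0240) and was not called. The core fusion genes were close to wild type. Snap25 stood at 290.2 and 262 FPKM in the authors' deposited Clontech table and at 243 and 231 in the NuGEN table, with q-values of 0.722 and 0.872. Stx1a stood at 78.6 and 93.8 and at 83.9 and 87.9 FPKM, with q-values of 0.510 and 0.889 in the authors' deposited tables. Vamp2 stood at 39.0 and 42.3 and at 40.9 and 29.4 FPKM, with q-values of 0.843 and 0.168 in the authors' deposited tables. A q-value above the threshold does not show that these genes were unaffected. The 2 tables come from separate libraries and kits and were normalised separately, and the Clontech table uses the wild-type libraries of the E15.5 stage.

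**Figure D4:**
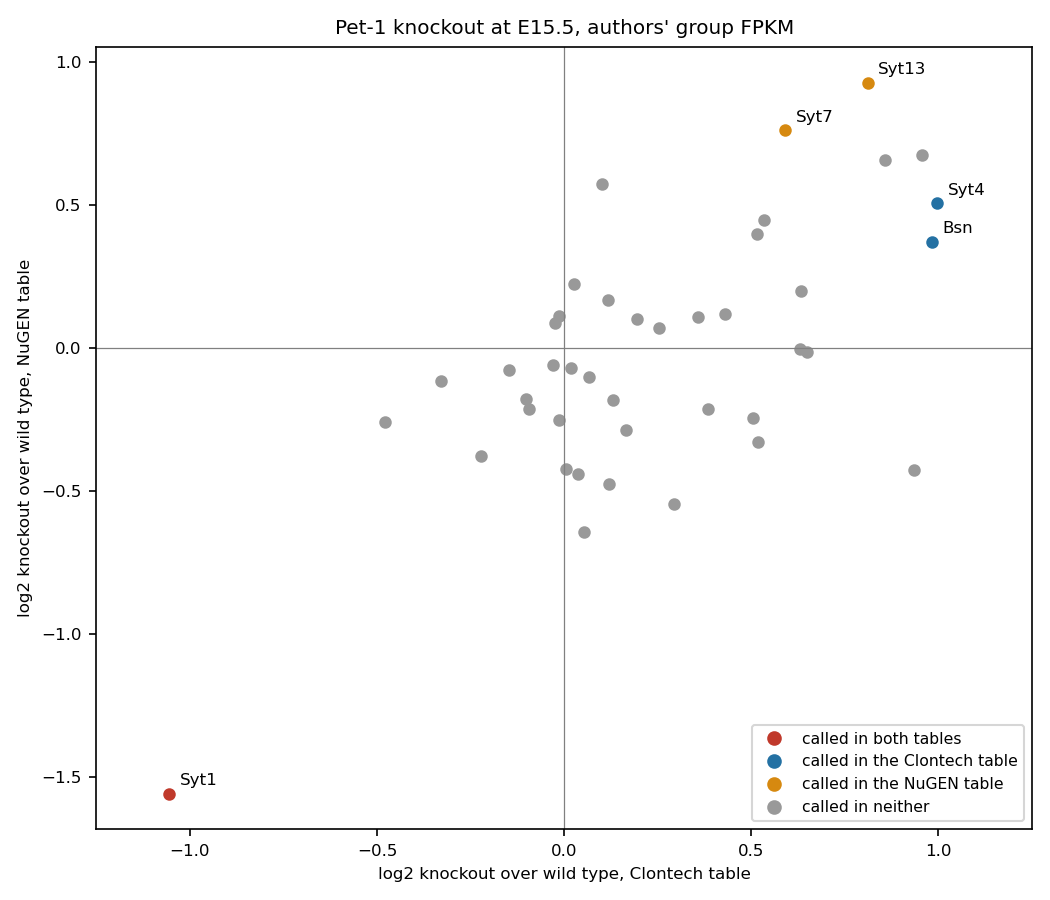
For 42 release genes at 1 FPKM or more in a group of each table, the log2 ratio of knockout to wild type FPKM is given for the Clontech table on the horizontal axis and the NuGEN table on the vertical axis, from the authors' group values. Syt1 lies alone at the lower left, at -1.06 and -1.56, Syt4 and Bsn were called in the Clontech table and Syt7 and Syt13 in the NuGEN table.

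Of 37 release genes with a known start, 8 had a peak in the gene or in the 5000 bases before it (21.6%). All 8 were among the 33 that passed the FPKM filter (24.2%), beside 3425 of 9276 genes that passed it (36.9%), a difference that was not tested. They were Snap29, Stx12, Stxbp5, Syt6, Syt11, Unc13b, Erc1 and Cadps. Of these Stx12, Syt6, Erc1 and Cadps were called in a stage comparison, and 0 of the 8 in a knockout table. Of all 44 tested release genes, 11 were called in no stage comparison. The knockout tables called 3 of 42 (Clontech) and 3 of 45 (NuGEN) release genes, and a relation of peaks to calls was not tested. Snap29, Stx12, Syt11 and Unc13b had a peak across a listed start, which for Syt11 and Unc13b lies inside the gene span. The highest score, a value the authors' peak caller gave each peak, was 94.3 at Syt6, and the lowest 52.5 at Stxbp5. Only Stx12 and Syt6 had a peak scored above the median of all peaks (6.06% of the 33, beside 20.5% of the 9276). With 5000 bases on both sides of all 50 gene spans, which needs no strand, 15 had a peak, all among the 44 tested (34.1%, beside 39.3% of 11650 genes), now also Vamp2, Vamp3, Napa, Syt5, Syt13, Syn3 and Sv2a. The peaks come from 1 precipitation, so there is no replicate behind them.

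The ETS cores searched in the promoters shown for Syt1, Stx12 and Syt11 can also be counted in the 250 bases before each known start. Of the 37 release genes with an entry, 8 held CGGAA and 17 held AGGAA on either strand before at least one of the gene's starts, beside 25.2% and 60.3% of 32851 single RefSeq promoters. CGGAA can overlap its own opposite-strand form, as in the Syt11 site, and on 1 strand the last base of CGGAA can be the first of AGGAA. A match is a description of letters and was not tested for binding.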

How the data were processed

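RNA of sorted 5-HT neurons was measured in 18 libraries and chromatin in 1 precipitation and 1 input, 20 samples whose titles give 8 groups. The authors deposited FPKM, for single stage libraries in a matrix and for whole groups in knockout tables that per the file headers have Cuffdiff form. The submitters' processing notes name TopHat2, Cufflinks, BWA and MACS 1.4.2, and as genome builds mm9 and mm10. Beside them the authors' deposited tables give each gene a log2 ratio of group FPKM, a p-value and a q-value. Each peak of the authors' deposited list carries a score, on mm10 coordinates. No source states whether FPKM were rescaled across libraries.

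The genes, their roles and all other lists were chosen with earlier results of these data known. Every gene of the list was named. Values of each library were printed for genes called in a stage comparison and for the 2 highest genes of each role by mean FPKM, and those called in a knockout table with both tables. Of the other pathway lists at most the 2 highest called genes were named. Some genes of those lists are not reported here. The stage matrix has 3 further columns that match no sample, which were left unused. No kit is named for its E15.5 columns, whose means lay at a median ratio of 1.01 to the Clontech wild type over 6379 genes. The median alone does not tell the kits apart, since it was also 1.01 for the NuGEN knockout. With the tails left out, the ratio ran from 0.874 to 1.19 for the Clontech wild type. For the NuGEN wild type it ran from 0.482 to 2.06. A failed estimate removed 14 genes.

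Stages were compared on log2(FPKM + 1), a scale on which low genes appear to change less than they do, using limma 3.58.1 (R 4.3.3) with its trend option. All 9 libraries entered 1 fit, with 6 residual degrees of freedom, which was tested on simulated data. Genes at 1 FPKM in at least 3 libraries entered. P-values were adjusted by Benjamini-Hochberg over all genes tested. Knockout calls used the deposited q-values with no test on libraries. Peaks were matched to RefSeq GRCm38.p6 spans and starts, and 13 of the 50 genes had no listed start. The alternatives tried were another pseudocount, no filter on low values, upper quartile scaling, median centring, fits of 2 groups, each library left out, the authors' q-values, other fold and FPKM thresholds, and other peak windows, of which 5000 bases on both sides was chosen after seeing the data.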

Additional observations from a re-analysis of the deposited data

How the results depend on the processing

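Of 72 called changes of single genes, 49 kept their call when any of the 9 libraries was left out and 23 lost it without at least 1 library, and 0 of the 72 reversed under any alternative run. The number of genes called from E11.5 to E15.5 was 10 to 16 over the 9 leave-one-out fits (16 with all libraries), from E15.5 to PN 8 to 15 (13), over the whole span 25 to 30 (31) and for the difference between the intervals 7 to 15 (12). The authors' deposited q-values gave 24 calls from E15.5 to PN, 12 of them among the 13, and 20 calls from E11.5 to E15.5, 13 of them among the 16; the cause was not tested. The settings log2(FPKM + 0.1), no filter, upper quartile scaling, median centring and fits of 2 groups gave 12 to 17, 10 to 17 and 28 to 33 calls in the 3 stage comparisons. Of the 72 called changes, log2(FPKM + 0.1) ended 4, no filter 11, upper quartile scaling 5 and median centring 3, and fits of 2 groups ended 8 of 60; apart from that of Syt13, each change ended in these ways was also lost without at least 1 library. Upper quartile scaling moved the all-gene median from E11.5 to E15.5 from 0.11 to -0.02. A 2-fold threshold left 1 knockout call in each table, Syt1, and without an FPKM minimum the NuGEN table gave 4. With 0.1 added in place of 1, 5 paralog ratios passed in place of 3, and leaving out libraries gave 2 to 5. Peaks scored above the median of the list lay at 2 genes in place of 8, and 5000 bases on both sides gave 15. No paired analysis was possible because the library columns carry no replicate numbers and the knockout tables hold group values only. Depth is unknown, so counting error could not be given for low genes such as Syt6, Syt12 and Vamp1.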
